A study of Mus musculus with 38 samples.

Results

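Maternal mRNA clearance is the removal of the transcripts that an oocyte stored during growth, and the 10 genes described here act in it. The group was chosen by gene symbol, as the rows of the deposited table named Btg4, Cnot7, Cnot8, Cnot6l, Pan2, Pabpn1l, Dcp2, Dcp1a, Zfp36l2 and Ythdf2, and all 10 were found among its 23125 genes. In an oocyte no transcription replaces an mRNA that is lost, so the length of the poly(A) tail and the cap decide how long a message lasts and how well it is translated. The CCR4-NOT complex shortens the tail, the decapping enzyme then opens the 5′ end, and proteins bound to the message choose which mRNAs are taken. Many of the factors are themselves made from dormant mRNAs that are loaded onto ribosomes only when the oocyte resumes meiosis.

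Polysome profiling was done on 6 stages of ICR mice, whose females were at least 6 weeks old and primed with PMSG. Fully grown GV (germinal vesicle, prophase) oocytes were taken at isolation, and MII oocytes came from the same kind of oocyte matured in culture. Zygotes in interphase were recovered from oviducts after hCG and mating, and two-cell embryos came from zygotes cultured in KSOM. The M phases of the zygote (zygote M) and of the two-cell embryo (two-cell M) were collected with nocodazole at 10 µM, a microtubule poison, which none of the other 4 groups received. Lysates were sedimented through sucrose, the lighter fractions being pooled as the non-polysome and the heavier ones as the polysome fraction, and both pools were sequenced with 3 libraries each. The zygote M and two-cell M libraries carry a treatment label that names meiosis, while their titles name the zygote and the two-cell embryo, and the titles were followed. The labels do not say whether replicates came from separate mice, so the p-values measure the spread between these samples.

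Levels are FPKM, fragments per kilobase of transcript with each library scaled to its own total. A polysome level is therefore relative to the other mRNAs of that pool and gives no share of an mRNA on ribosomes, and fewer cells or less RNA per cell cannot be told apart. The most frequent low value, taken as 1 fragment, gave an estimated depth of 8491070 to 26658700 fragments, though most low values were not whole multiples of it, so fragment numbers, floors and fold bounds below are estimates. By it, the two-cell M libraries were the shallowest by their medians, with 11106900 to 19445500 in polysomes and 8491070 to 17135600 outside them. They also held the fewest genes above 0.1 FPKM within each pool, 5140 to 7550 over both, against 6798 to 10525 in the other libraries. The summed level of 8 oocyte markers (Zp1, Zp2, Zp3, Gdf9, Bmp15, Ooep, Nlrp5 and Mos) ran from 4470 to 6170 FPKM in GV polysomes to 48.3 to 197 FPKM in two-cell M polysomes, with none of the 8 at the floor of the table in a whole group. Of the blood markers, the alpha globins brought the sum to 34.3 to 83.6 FPKM in two-cell polysomes and 24.3 to 42.5 FPKM in two-cell M polysomes, while Hbb-bt stayed at the floor in both and Hbb-bs in the latter. Summed cumulus and granulosa markers reached 4.36 to 15.6 FPKM in two-cell M polysomes, with 4 of the 9 at the floor, against 0 to 4.66 FPKM in polysomes of the other stages. Outside polysomes these markers were not particular to two-cell M, with cumulus sums of 8.28 to 20.6 FPKM in two-cell, up to 23.5 FPKM in MII and 5.74 to 19.1 FPKM in two-cell M, and blood sums of 99.6 to 162 FPKM in two-cell and 0 to 52.5 FPKM in two-cell M. The part of either in the changes below was not tested.

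The 3′ ends of the mRNAs were read because dormant oocyte messages are often kept by the cytoplasmic polyadenylation element, CPE, which the protein CPEB binds close to the poly(A) signal. The letters searched on the mRNA strand were TTTTAT and TTTTAAT for the CPE and AATAAA and ATTAAA for the poly(A) signal, within the last 100 bases of 1 GENCODE transcript for each gene, GRCm38 build. Either form of the CPE stood in 4 of the 9 members whose 3′ end is complete in that annotation (Btg4, Cnot7, Pan2 and Dcp1a), against 17.9% of 19288 genes read alike. Cnot8 has no complete 3′ end there and was left out. The following 30-base windows are shown because they hold the CPE of these 4 mRNAs, or, for Pabpn1l and Zfp36l2, the most abundant member and the one called higher in two-cell than in GV, which had none in the last 100 bases, the poly(A) signal, with each motif in capitals.
Btg4, chr9:51119797-51119826, plus strand: agataaatccctTTTTATgtctttttaaaa
Cnot7, chr8:40493036-40493065, minus strand: ttaaggtacaTTTTATatcAATAAAaatac
Pan2, chr10:128321309-128321338, plus strand: acagcatgTTTTATaaAATAAAagtatttt
Dcp1a, chr14:30527011-30527040, plus strand: aaatatatttTTTTAATAAAatttcaaaac
Pabpn1l, chr8:122619473-122619502, minus strand: agaatgtaaattATTAAActtgaatatatt
Zfp36l2, chr17:84183931-84183960, minus strand: tttgtagtttcccccAATAAAattttttgg
In Cnot7 and Pan2 the CPE lies a few bases before AATAAA, and in Dcp1a the 2 motifs overlap. Btg4 carries TTTTAT 67 bases from its end and had no AATAAA or ATTAAA in the last 100 bases. Pan2 held 3 copies of TTTTAT in that window, and 13.9% of all genes held any. Pabpn1l had neither form of the CPE anywhere in its 3′ UTR of 263 bases. A match of letters is a description of the sequence and no test of binding.

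Across the 6 stages, 8 of the 10 mRNAs varied in polysomes (limma moderated F-test on log2 FPKM, Benjamini-Hochberg adjusted over 7967 genes), where 62.9% of all genes tested did. Cnot6l (adjusted p = 0.694) and Ythdf2 (adjusted p = 0.269) did not pass in this limma test. A change between stages was called at an adjusted p under 0.05 and a log2 difference beyond 1. The libraries of neighbouring stages did not overlap for 4 members between GV and MII (47.5% of all genes), 7 between MII and zygote (56.2%), 6 between zygote and zygote M (56.5%), 4 between zygote M and two-cell (34.4%) and 7 between two-cell and two-cell M (43.4%). Over the 5 consecutive steps in polysomes, 9 of 50 member tests were called, 2 higher and 7 lower, against 11.8% of all gene tests, and 7 of those 9 fell in the step from two-cell to two-cell M. The plot of levels shows the order of events. Cnot8 rose on entry into MII, Pabpn1l fell on entry into zygote M, and Btg4, Cnot7, Pan2, Pabpn1l, Dcp1a and Zfp36l2 fell in two-cell M.

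**Figure D1:**
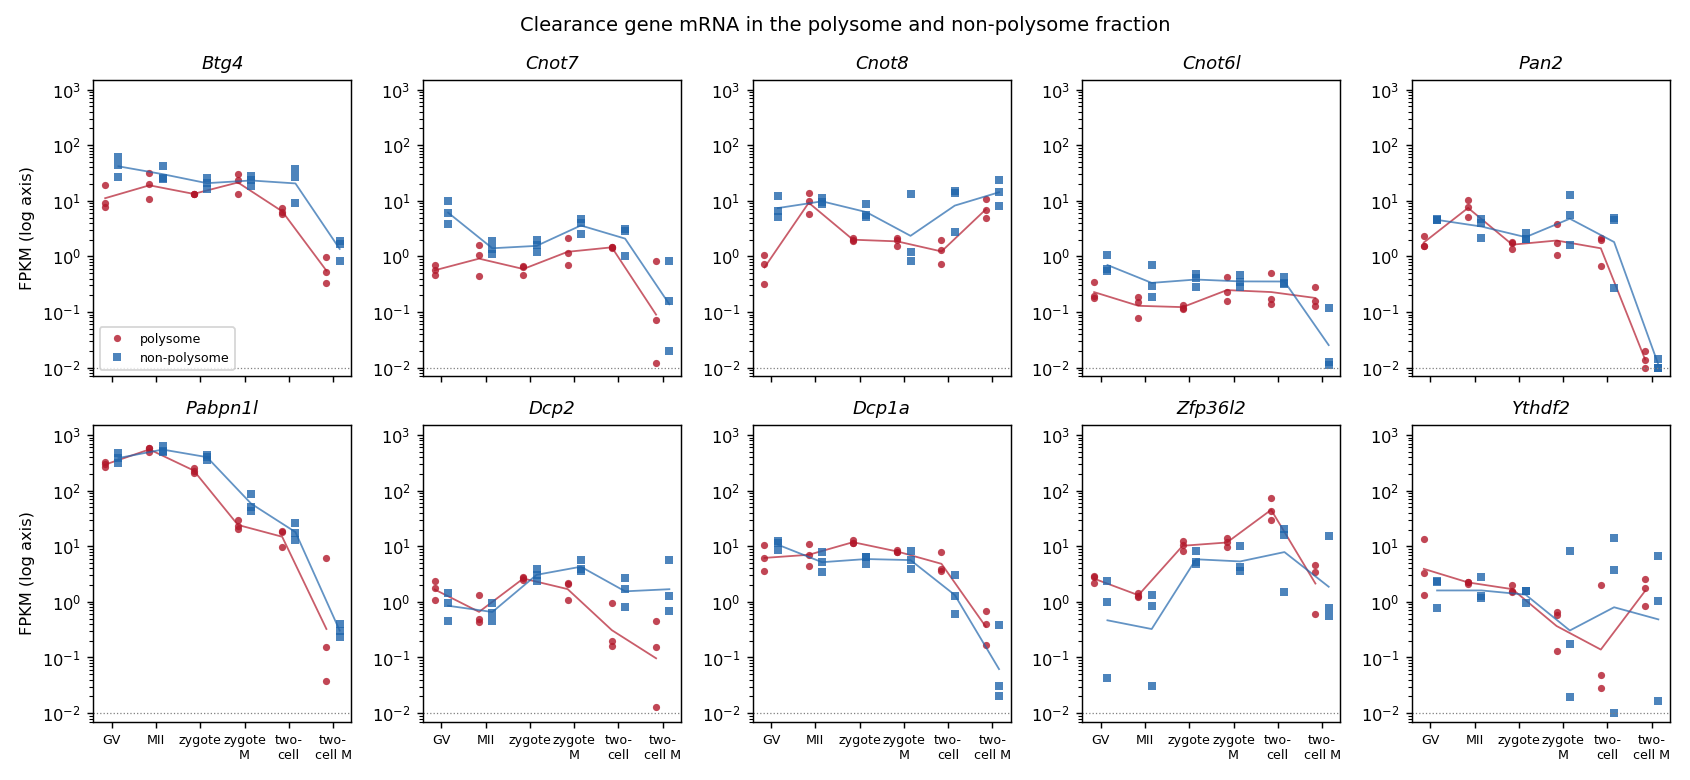
FPKM of each clearance gene on a log axis against the 6 stages, with 1 point per library (circles, polysome, squares, non-polysome, 3 each) and a line through the geometric means. The dotted line is 0.01 FPKM, the smallest value in every library. Pabpn1l is the most abundant member up to the zygote, Pan2 sits at the floor in two-cell M, and Zfp36l2 peaks in two-cell polysomes.

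BTG4 is the adaptor of the group, binding the deadenylases CNOT7 and CNOT8 and bringing CCR4-NOT to translated messages. Its gene lies at chr9:51060901-51119875 on the plus strand. Polysome levels were 9.22, 7.87 and 19.0 FPKM in GV, 19.7, 31.5 and 11.0 FPKM in MII, 13.5, 13.1 and 13.2 FPKM in zygotes, and 24.0, 13.5 and 29.9 FPKM in zygote M. These 4 groups overlapped or lay close together, and none of their consecutive steps was called. Levels then came to 7.41, 5.78 and 6.30 FPKM in two-cell embryos, a log2 difference from zygote M of −1.72 (SE 0.55, limma adjusted p = 0.0597). That difference was called in 5 of the other settings (0.1 or 1 FPKM added, a mean of at least 1 FPKM, quantile normalization and only the libraries compared), at limma adjusted p between 0.0175 and 0.0469. In two-cell M they were 0.334, 0.522 and 0.973 FPKM, all far below two-cell, and the fall of 3.54 on the log2 scale was called (SE 0.55, limma adjusted p = 1.45e-05). The non-polysome pool went the same way, from 8.96, 36.6 and 26.3 FPKM in two-cell to 0.815, 1.86 and 1.66 FPKM in two-cell M (log2 difference −3.91, SE 0.55, limma adjusted p = 1.94e-06). With all library medians set equal, the difference outside polysomes was −0.26 and was no longer called, where the median of all genes moved from −1.14 to 2.51, while the polysome difference of −2.13 still was. Under quantile normalization the call outside polysomes held (−2.52, limma adjusted p = 0.000515). By level, two-cell M polysomes held 9.37 to 15.9 fragments of Btg4 per library, which limits the precision of these values.

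CNOT7 and CNOT8 are alternative catalytic subunits of CCR4-NOT, only 1 of which sits in a complex at a time. Cnot7, at chr8:40492540-40515847 on the minus strand, was low in GV polysomes, with 0.562, 0.460 and 0.689 FPKM, and higher outside them, with 6.06, 9.89 and 3.82 FPKM. The 2 pools did not overlap, yet the log2 difference of −3.44 missed the threshold (SE 1.07, limma adjusted p = 0.0603). It was called with 0.1 or 1 FPKM added (limma adjusted p = 0.00372 and 4.35e-05), under quantile normalization (0.0002), with only the libraries compared (0.0275) and without the two-cell M libraries (0.000185). Polysome levels of 1.04, 1.61 and 0.451 FPKM in MII overlapped those of GV. Outside polysomes MII held 1.85, 1.34 and 1.10 FPKM, all below GV. That log2 difference of −2.13 was not called (SE 1.07, limma adjusted p = 0.191). It was called with 0.1 or 1 FPKM added (limma adjusted p = 0.0308 and 0.00058) and under quantile normalization (0.00349). So it was with only the libraries compared (0.0253) and without the two-cell M libraries (0.00697). Zygote polysomes held 0.682, 0.651 and 0.469 FPKM and zygote M polysomes 2.16, 0.704 and 1.16 FPKM, all above zygotes. That step was called under quantile normalization (2.22, limma adjusted p = 0.0488) and not in the full fit. Two-cell polysomes held 1.49, 1.46 and 1.42 FPKM, all above GV. This difference from GV, too, was called under quantile normalization (2.64, limma adjusted p = 0.0116) and not in the full fit. Two-cell M polysomes held 0.0122, 0.823 and 0.0718 FPKM, all lower than two-cell though far apart among themselves. That fall of 4.02 on the log2 scale was called (SE 1.07, limma adjusted p = 0.00447), but 2 of the 3 two-cell M libraries held under 3 fragments. It was not called without two-cell M replicate 1 (log2 difference −2.58, limma adjusted p = 0.0628), nor in 4 of 9 other settings, among them library medians set equal (−2.60, limma adjusted p = 0.0704).

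Cnot8, at chr11:58104153-58118594 on the plus strand, behaved differently. Its GV polysome levels were 1.06, 0.325 and 0.731 FPKM, against 12.3, 6.56 and 5.00 FPKM in the non-polysome pool. In MII the polysome levels were 5.87, 13.5 and 9.86 FPKM and the non-polysome levels 8.66, 11.4 and 9.50 FPKM. So every MII polysome library lay above every GV one, while the non-polysome pools overlapped between the stages. The rise in polysomes was 3.87 on the log2 scale (SE 0.78, limma adjusted p = 0.00167), from a mean of 0.706 ± 0.370 to 9.75 ± 3.83 FPKM (SD, n = 3 libraries each), and it was the single member call of this step, where 6.11% of all genes were called and 3.36% were called higher. It kept its call without each of the 6 libraries in turn and in all 9 other settings tried. Outside polysomes the change was 0.40 (SE 0.78, limma adjusted p = 0.777). The difference between the 2 changes, 3.46 (SE 1.11), did not pass (limma adjusted p = 0.278, unadjusted 0.00408), except under quantile normalization and with only the libraries compared (0.0394 in both).

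After fertilization Cnot8 in polysomes came to 1.90, 2.15 and 1.94 FPKM in zygotes, all under the MII values, although the difference of −2.21 was not called (SE 0.78, limma adjusted p = 0.133) except in 2 settings, 1 FPKM added (0.0294) and only the libraries compared (0.00183). No member was called in that step in limma, where 4.57% of all genes were. An unadjusted limma p under 0.05 was reached by 4 members. Here and below, such counts use a looser threshold than the calls and are not comparable with the share of genes called. It was 1.51, 2.01 and 2.13 FPKM in zygote M and 0.718, 1.96 and 1.31 FPKM in two-cell. In two-cell M it was 4.80, 6.72 and 10.5 FPKM, again above every library of the stage before it. The rise of 2.51 (SE 0.78) was called in limma (adjusted p = 0.0134), and it was not called without two-cell replicate 1 (log2 difference 2.12, limma adjusted p = 0.0694). Cnot8 was thus called higher in the same step in which Cnot7 was called lower, and the difference between the paralogs was not tested.

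Part of the Cnot8 sequence also occurs elsewhere, which bears on these values. Of the 31-base words of the Cnot8 transcript, 14.7% are shared with Gm18860, a processed pseudogene of 764 bases at chr8:71704205-71704968, and 41.6% of the words of Gm18860 occur in Cnot8. Gm18860 moved with Cnot8, with a Pearson r of 0.945 over the 12 group means, which share their libraries. It was listed at 4.05, 0.951 and 2.38 FPKM in GV polysomes and at 12.5, 32.2 and 21.5 FPKM in MII polysomes, a log2 difference of 3.29 (SE 0.97, limma adjusted p = 0.0383). Its two-cell M polysome levels were also above those of two-cell (log2 difference 3.15, SE 0.97, limma adjusted p = 0.0124). How the authors' counting divided fragments between the 2 loci is not given in the sources used here, so the Cnot8 levels are uncertain by that share. For the other members the shared words were 14.3% for Ythdf2, most with the pseudogene Gm6823, and under 2% for the rest. Exons on the opposite strand overlap 6.51% of Cnot7 (Zdhhc2) and 2.97% of Zfp36l2 (AC132455.1), and whether the counting used strand is not given in the sources used here.

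**Figure D2:**
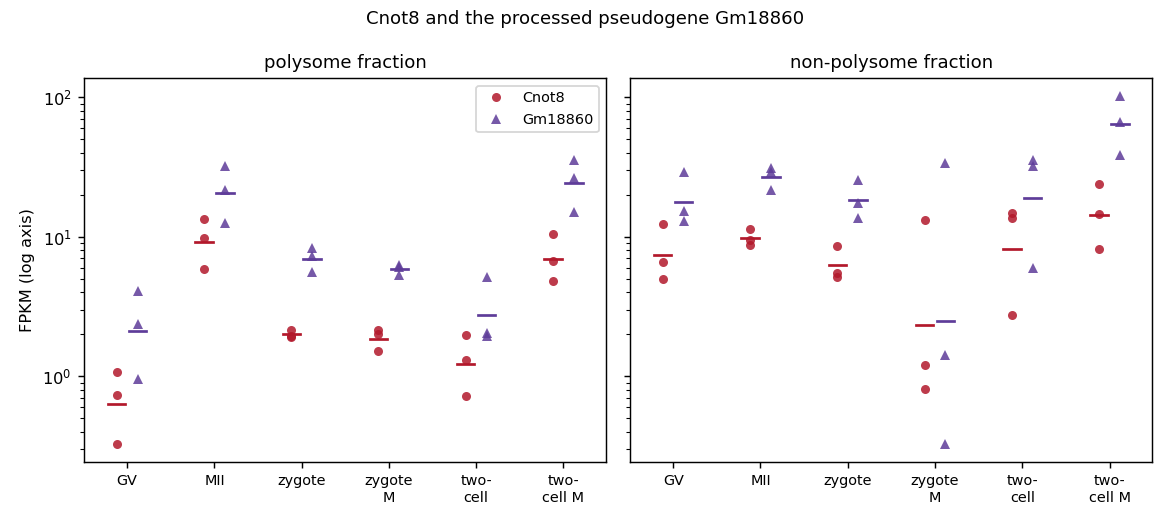
FPKM on a log axis of Cnot8 (circles) and of the pseudogene Gm18860 (triangles) in each library against the stage, polysome left and non-polysome right, with bars at the geometric means of 3 libraries. Both are low in GV polysomes, high in MII polysomes and high again in two-cell M polysomes.

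Cnot6l encodes the main CCR4-type nuclease of the complex in oocytes and lies at chr5:96070333-96164171 on the minus strand. It was the least abundant member in most polysome groups, at 0.176, 0.192 and 0.350 FPKM in GV, 0.149, 0.182 and 0.0794 FPKM in MII, and 0.117, 0.115 and 0.136 FPKM in zygotes. Levels of 0.427, 0.225 and 0.158 FPKM in zygote M, 0.506, 0.170 and 0.138 FPKM in two-cell, and 0.278, 0.128 and 0.161 FPKM in two-cell M overlapped. Each zygote M library lay above each zygote one, but no step was called in the full fit. Under quantile normalization the zygote to zygote M step was called higher (2.03, limma adjusted p = 0.039). Against MII, zygote M (1.88, 0.0379) and two-cell M (3.99, 1.87e-05) were called higher under it too. With library medians set equal, two-cell M against MII was also called (2.67, limma adjusted p = 0.0116). The Cnot6l transcript of 8564 bases gave 12.6 to 87 estimated fragments per polysome library at these levels. Outside polysomes it fell in two-cell M, from 0.320, 0.417 and 0.331 FPKM to 0.116, 0.0113 and 0.0125 FPKM (log2 difference −3.80, SE 0.77, limma adjusted p = 0.000293). There 2 of the 3 libraries were under 3 fragments, and the difference was −0.14 both with library medians set equal, where the median of all genes was 2.51, and under quantile normalization, where it was 0.21, and was called in neither.

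PAN2 is the nuclease of the PAN2-PAN3 complex, which trims long poly(A) tails before CCR4-NOT acts, and its gene is at chr10:128303335-128321358 on the plus strand. Polysome levels were 2.37, 1.56 and 1.53 FPKM in GV and 7.74, 10.5 and 5.09 FPKM in MII. Every MII library was above every GV library, but the log2 difference of 2.07 did not pass (SE 0.84, limma adjusted p = 0.167), except with 1 FPKM added (0.0134) or only the libraries compared (0.0114). Pan2 was back at 1.73, 1.35 and 1.83 FPKM in zygotes, at 3.83, 1.06 and 1.76 FPKM in zygote M and at 1.96, 2.11 and 0.661 FPKM in two-cell. In two-cell M it was listed at 0.01, 0.0139 and 0.0200 FPKM in polysomes and 0.0145, 0.01 and 0.01 FPKM outside them, by the estimate under 3 fragments in all 6 libraries. The two-cell polysome mean of 1.58 FPKM was 25.9 times a floor of 3 fragments per library (0.0608 FPKM at most). Outside polysomes the two-cell mean of 3.20 FPKM was 40.2 times that floor (0.0795 FPKM at most). Both are bounds for a ratio of means and do not hold for single libraries. The two-cell libraries outside polysomes read 4.48, 0.274 and 4.84 FPKM, replicate 2 lying far nearer the floor. The fitted difference in polysomes was called (limma adjusted p = 8.65e-07) under every setting and without each library in turn, its size depending on the 0.01 FPKM that every value of the table carries.

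PABPN1L, a poly(A)-binding protein of the oocyte that works with BTG4, was encoded by the most abundant member. Pabpn1l is a short gene at chr8:122619471-122622739 on the minus strand. Its polysome levels were 266, 324 and 296 FPKM in GV, 505, 576 and 577 FPKM in MII, and 210, 255 and 229 FPKM in zygotes. The 3 groups did not overlap, and MII was the highest. In zygote M the levels were 20.8, 29.2 and 23.3 FPKM, an order of magnitude below zygotes, and this fall of 3.25 on the log2 scale was called (SE 0.89, limma adjusted p = 0.0243). It was the single member call of that step, where 5.75% of all genes were called and 2.51% were called lower. Outside polysomes the levels went from 355, 408 and 444 FPKM to 50.8, 88.8 and 43.8 FPKM (log2 difference −2.78, SE 0.89, limma adjusted p = 0.0438), against a background of 10.4%. The summed oocyte markers were lower in the same step, at 1710 to 1980 FPKM in zygotes and 367 to 600 FPKM in zygote M in polysomes, and at 2320 to 2540 and 424 to 538 FPKM outside them, and their part was not tested.

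Pabpn1l then read 9.87, 17.9 and 18.5 FPKM in two-cell polysomes. In two-cell M it read 0.152, 6.06 and 0.0375 FPKM, with 1 library far above the other two, and the step was called (log2 difference −5.51, SE 0.89, limma adjusted p = 2.53e-05). By the estimate these libraries held 3.16, 100 and 0.351 fragments of Pabpn1l, so the size of the fall is uncertain. Since all 12 groups share 1 spread per gene, these 3 unequal libraries widened the error of every Pabpn1l comparison. Without any of the 6 libraries of the zygote to zygote M step the adjusted p in polysomes lay between 0.0602 and 0.0939 in limma, and with library medians set equal it was 0.0866 (log2 difference −2.79). The non-polysome call of that step was likewise lost without each library. When the 6 two-cell M libraries were left out of the fit, an alternative chosen after seeing the data, the same difference had an SE of 0.27 and a limma adjusted p of 6.39e-09. The fall from MII to zygote, −1.26 on the log2 scale, was then called too (SE 0.27, limma adjusted p = 0.00255), where the full fit gave an adjusted p of 0.751. In that fit 11.2% of all gene tests over the 4 steps before two-cell M were called in place of 5.65%, and the member calls were 5 in place of 2, the added ones being this fall, Btg4 (−1.72, limma adjusted p = 0.0174) and Dcp2 (−2.45, limma adjusted p = 0.0143), both from zygote M to two-cell.

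DCP1A and DCP2 form the decapping enzyme, DCP2 cutting the cap and DCP1A activating it. Dcp1a, at chr14:30479535-30527063 on the plus strand, had no called step in polysomes up to the two-cell embryo. Its polysome levels were 6.20, 3.60 and 10.6 FPKM in GV, 7.07, 11.1 and 4.43 FPKM in MII, 12.9, 11.3 and 11.4 FPKM in zygotes, 7.74, 7.83 and 8.63 FPKM in zygote M, and 7.87, 3.63 and 3.94 FPKM in two-cell. In two-cell M they were 0.165, 0.406 and 0.692 FPKM, below every other polysome library (log2 difference −3.75, SE 0.79, limma adjusted p = 0.000539). Outside polysomes Dcp1a held 8.73, 11.4 and 12.3 FPKM in GV, 7.81, 5.20 and 3.40 FPKM in MII, 6.40, 6.53 and 4.89 FPKM in zygotes and 8.32, 3.83 and 5.64 FPKM in zygote M. It came to 1.28, 0.611 and 3.02 FPKM in two-cell, below every zygote M library. That difference of −2.08 was not called (SE 0.79, limma adjusted p = 0.0566). It was called without the two-cell M libraries (limma adjusted p = 0.00354) and under quantile normalization (−2.04, limma adjusted p = 0.012). With 0.1 or 1 FPKM added (limma adjusted p = 0.0131 and 0.00512) or a mean of at least 1 FPKM (0.0489) it was called as well. In two-cell M Dcp1a stood at 0.386, 0.0199 and 0.0309 FPKM outside polysomes, a called fall of 4.43 (SE 0.79, limma adjusted p = 6.07e-05). By the estimate, replicates 2 and 3 held 0.469 and 1.99 fragments, so the size of this fall is uncertain. That fall was −0.77 and not called with library medians set equal, where the median of all genes stood at 2.51, and −0.93 and not called under quantile normalization (limma adjusted p = 0.263), where that median was 0.21.

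Dcp2, at chr18:44380502-44424969 on the plus strand, had another course. In polysomes it read 1.10, 1.79 and 2.35 FPKM in GV, 0.499, 1.32 and 0.439 FPKM in MII, 2.76, 2.64 and 2.5 FPKM in zygotes, and 1.08, 2.07 and 2.18 FPKM in zygote M. The zygote libraries were the highest, above every MII library, but the difference of 1.99 was not called (SE 0.94, limma adjusted p = 0.378) except in 3 settings, 1 FPKM added (0.0479), quantile normalization (0.0132) and only the libraries compared (0.0114). Outside polysomes Dcp2 was also higher in zygotes, at 3.06, 3.89 and 2.42 FPKM, than in MII, at 0.964, 0.460 and 0.641 FPKM. That difference of 2.22 was not called in the full fit. It was called in the same 3 settings and without the two-cell M libraries (limma adjusted p between 0.0149 and 0.0438). Polysome levels were 0.196, 0.948 and 0.161 FPKM in two-cell and 0.152, 0.0131 and 0.453 FPKM in two-cell M. Outside polysomes the two-cell M levels of 0.677, 1.27 and 5.62 FPKM were the higher ones in each gradient. Two-cell M Dcp2 was called lower in polysomes than outside them (log2 difference −4.13, SE 0.94, limma adjusted p = 0.00318). Of its polysome libraries, replicate 2 held under 3 fragments, and without it the difference was −2.69 and still called.

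ZFP36L2 binds AU-rich elements and hands messages to CCR4-NOT, and YTHDF2 does the same for N6-methylated mRNA. Zfp36l2, at chr17:84183931-84187947 on the minus strand, was the member called higher in two-cell embryos than in GV oocytes. Polysome levels were 2.21, 2.89 and 2.79 FPKM in GV and 1.25, 1.30 and 1.42 FPKM in MII. They were 8.30, 12.3 and 10.4 FPKM in zygotes, 11.7, 14.2 and 9.61 FPKM in zygote M, and 29.4, 73.4 and 42.7 FPKM in two-cell. Each zygote library lay above each oocyte library, yet the step from MII to zygote, 2.95, was not called (SE 1.32, limma adjusted p = 0.316). The exceptions were the 3 settings that called Dcp2 in polysomes (0.00425 under quantile normalization). Outside polysomes the levels went from 0.0304, 1.32 and 0.857 FPKM in MII, with 1 library under 3 fragments, to 5.14, 4.74 and 8.15 FPKM in zygotes. That difference of 4.17 was not called in the full fit. It was called without the two-cell M libraries (limma adjusted p = 0.0389) and under quantile normalization (4.44, 0.00334). In polysomes the difference between two-cell and GV, 4.11, was called (SE 1.32, limma adjusted p = 0.0309). That call was lost in 5 of the 6 fits without a library, at adjusted p between 0.063 and 0.098 in limma. In two-cell M the levels were 3.48, 0.615 and 4.56 FPKM, a called fall of 4.40 from two-cell (SE 1.32, limma adjusted p = 0.0101). It was not called without two-cell M replicate 2 (log2 difference −3.50, limma adjusted p = 0.0676) or with library medians set equal (−2.99, limma adjusted p = 0.0918). In its 3′ UTR of 1822 bases Zfp36l2 carries the AU-rich letters TATTTAT 3 times, and Cnot6l also carries them 3 times. They occur at least once in the 3′ UTR of 6 of the members read for motifs and of 27.9% of all genes.

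Ythdf2, at chr4:132184912-132212303 on the minus strand, varied most between replicates. In polysomes it was steady in MII, at 2.12, 2.30 and 2.30 FPKM, and in zygotes, at 2.00, 1.52 and 1.60 FPKM. GV libraries held 3.32, 1.33 and 13.7 FPKM, zygote M 0.129, 0.583 and 0.663 FPKM, two-cell 0.0278, 1.99 and 0.0482 FPKM and two-cell M 0.847, 2.63 and 1.75 FPKM. Each zygote M library lay below each MII and zygote library. In the full fit neither difference was called (−2.20 from zygote, −2.60 from MII, limma adjusted p = 0.761 and 0.522). Fitting the libraries compared alone called both (limma adjusted p = 0.0426 and 0.0207). With an SE of 2.10 on each log2 difference, the 95% interval of the two-cell M change ran from −0.79 to 7.79, so no direction could be given for it.

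The step from two-cell to two-cell M thus held 7 of the 9 polysome calls over the consecutive steps, with Btg4, Cnot7, Pan2, Pabpn1l, Dcp1a and Zfp36l2 lower and Cnot8 higher. Called genes made up 36.3% of those tested in this step, with 28.1% lower and 8.13% higher. All genes had a median log2 difference of −1.17, and the 10 members one of −3.65. With library medians set equal the median of all genes was 0.25, and Btg4, Pan2, Pabpn1l and Dcp1a remained called lower and Cnot8 higher. Outside polysomes 6 members were called lower, Btg4, Cnot7, Cnot6l, Pan2, Pabpn1l and Dcp1a, where 36.1% of all genes were called and 28.0% called lower, and Pan2 was the member that kept that call with library medians set equal, a scaling under which the median of all genes there was 2.51. Under quantile normalization Btg4 (−2.52), Pan2 (−4.35) and Pabpn1l (−3.28) kept it. The other non-polysome steps gave no member call in limma apart from Pabpn1l in zygote M. In those without a call, MII less GV, zygote less MII and two-cell less zygote M, 16.6%, 3.28% and 22.9% of all genes were called. An unadjusted limma p under 0.05, a looser threshold not comparable with those shares, was reached there by 0, 2 and 2 members. The shallower depth, the fewer genes detected and the lower oocyte markers of the two-cell M libraries go with these falls, and their part was not tested.

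**Figure D3:**
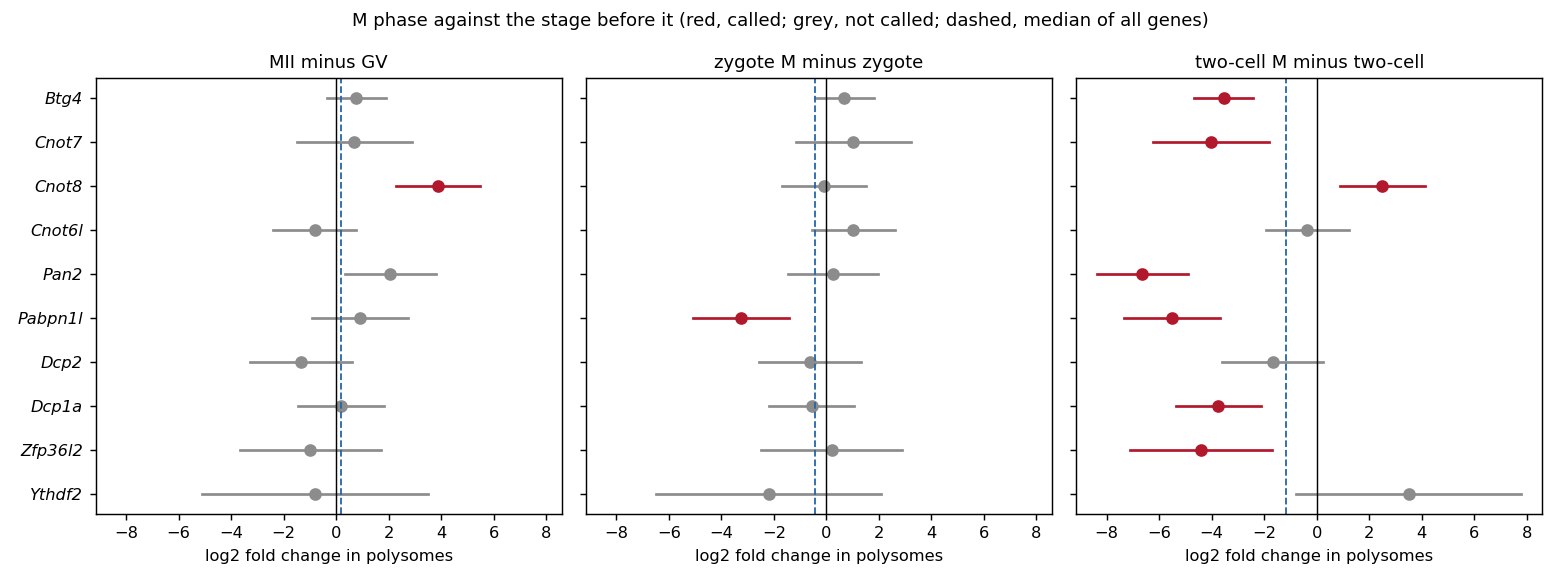
Log2 fold change in polysomes of each clearance gene at the 3 entries into M phase (columns), with bars for the 95% intervals of the limma fit over 3 libraries a group, red where called and grey where not. The dashed line is the median of all genes. Cnot8 alone is red in MII, Pabpn1l alone in zygote M, and 7 members are red in two-cell M, with Cnot8 to the right of 0 and 6 to the left.

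Like phases of meiosis and of the embryo were also compared in polysomes, with 9 of 40 member tests called against 21.9% of all gene tests. These comparisons share libraries with the consecutive steps. Interphase zygotes against GV gave no member call in limma, where 5.61% of genes were called. An unadjusted limma p under 0.05 was reached by 1 member. Two-cell against GV gave Zfp36l2 higher and Pabpn1l lower (log2 difference −4.31, SE 0.89, limma adjusted p = 0.00111), against 16.7%. Zygote M against MII gave Pabpn1l lower (−4.51, SE 0.89, limma adjusted p = 0.00075), against 12.4%. Cnot8 in zygote M lay below every MII library, but its log2 difference of −2.31 was not called (SE 0.78, limma adjusted p = 0.0507). It was called with the replicate letter as a block (limma adjusted p = 0.0489) and with 0.1 or 1 FPKM added (0.0263 and 0.0138). A mean of at least 1 FPKM (0.0411), only the libraries compared (0.00293) and leaving out two-cell M (0.0367) called it too. Zfp36l2 in zygote M lay above every MII library, a difference of 3.15 not called in the full fit. It was called with 0.1 or 1 FPKM added (limma adjusted p = 0.0387 and 0.00838), under quantile normalization (0.00105) and with only the libraries compared (0.000243). Pan2 was called lower with 1 FPKM added (0.0192) and only the libraries compared (0.0237). Dcp2 was called higher under quantile normalization (0.0163). Two-cell M against MII gave Btg4, Cnot7, Pan2, Pabpn1l, Dcp2 and Dcp1a lower, against 53.0% of all genes called and 45.2% called lower, with a median log2 difference of −3.06 for the members and −2.64 for all genes. Of these, Cnot7 was not called without two-cell M replicate 1 (log2 difference −1.91), and Dcp2 not without two-cell M replicate 2 (−1.33) or MII replicate 2 (−2.27). Neither was called with library medians set equal, and under quantile normalization both turned to positive values. Cnot8, at 4.80 to 10.5 FPKM in two-cell M and 5.87 to 13.5 FPKM in MII, overlapped between the 2 M phases (log2 difference −0.40, SE 0.78, limma adjusted p = 0.686).

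The changes on entering M phase were themselves compared between stages, in contrasts added after seeing the data, and 11 of 30 member tests were called, all lower, against 18.9% of all gene tests. The change into zygote M was below that into MII for Cnot8 and Pabpn1l, against 9.51% of genes called and 5.06% called lower. The Cnot8 call was lost in 2 of the fits without a library, and the Pabpn1l call in all 12. The change into two-cell M was below that into MII for Btg4, Cnot7, Pan2, Pabpn1l and Dcp1a (23.5% called, 18.7% lower). It was below that into zygote M for Btg4, Cnot7, Pan2 and Dcp1a (23.7% called, 16.8% lower). Without a library, the Cnot7 call was lost in 2 fits against MII and in 1 against zygote M. The Dcp1a call against zygote M was lost in 9. With library medians set equal the calls numbered 6. Among them was Cnot8, higher in two-cell M less zygote M (3.56, limma adjusted p = 0.0226).

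Polysome and non-polysome levels were set against each other within each stage, with 7 of 60 member tests called against 6.64% of all gene tests. Pools of the same stage and letter were taken as coming from 1 gradient, and with the gradient as a replicate block 4 calls were left, those of Btg4 in GV (limma adjusted p = 0.0681) and two-cell (0.0574) and of Dcp1a in two-cell M (0.0683) being lost. In GV oocytes Cnot8 (log2 difference −3.55, SE 0.78, limma adjusted p = 0.00748) and Btg4 (−1.91, SE 0.55, limma adjusted p = 0.041) were lower in polysomes, 2 of 10 members against 4.96% of all genes. The median of the members was −1.07, and that of all genes 0.56. The Btg4 call was lost in 4 of the 6 fits without a library. In MII no member was called in limma, the background being 0.753% and no member having an unadjusted p under 0.05, and the median of the members was 0.01. Zygotes (1.38%) and zygote M (1.92%) gave no member call either. An unadjusted limma p under 0.05 was reached by 2 members in zygotes and by none in zygote M. Fitting only the libraries compared called Cnot7 (−1.38, limma adjusted p = 0.0197), Cnot8 (−1.65, 0.00539) and Cnot6l (−1.65, 0.0239) lower in zygote polysomes. Dcp1a was called higher in it (1.01, 0.00896). That fit called 6 member tests between pools and kept 1 of the 7 calls of the full fit. No share of all genes is given here for it. In two-cell embryos Cnot8 (−2.74, SE 0.78, limma adjusted p = 0.0172) and Btg4 (−1.67, SE 0.55, limma adjusted p = 0.0374) were again lower in polysomes, against 16.1% of genes, and these calls were lost in 3 and 5 of 6 fits without a library. In two-cell M Cnot6l (2.81) and Dcp1a (2.54) were called higher and Dcp2 lower in polysomes, against 14.8%, but both higher ones rest on non-polysome libraries of which 2 in 3 held under 3 fragments. Their calls were lost with 0.1 FPKM added to each value. With library medians set equal, Btg4 (−3.80, limma adjusted p = 1.1e-05), Cnot7 (−3.12, 0.0321) and Cnot8 (−3.53, 0.00099) were called lower in two-cell M polysomes. Pan2 was called lower there too (−2.19, 0.03). The median of all genes moved from 0.37 to −2.14 under that scaling. Setting the change in polysomes against that outside them over the 5 steps gave no member call in 50 tests in limma. Of all gene tests 1.80% were called (0.163, 0.0377, 0.289, 2.76 and 5.75% from the first step to the last). An unadjusted limma p under 0.05, a looser threshold not comparable with that share, was reached in 4 member tests.

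**Figure D4:**
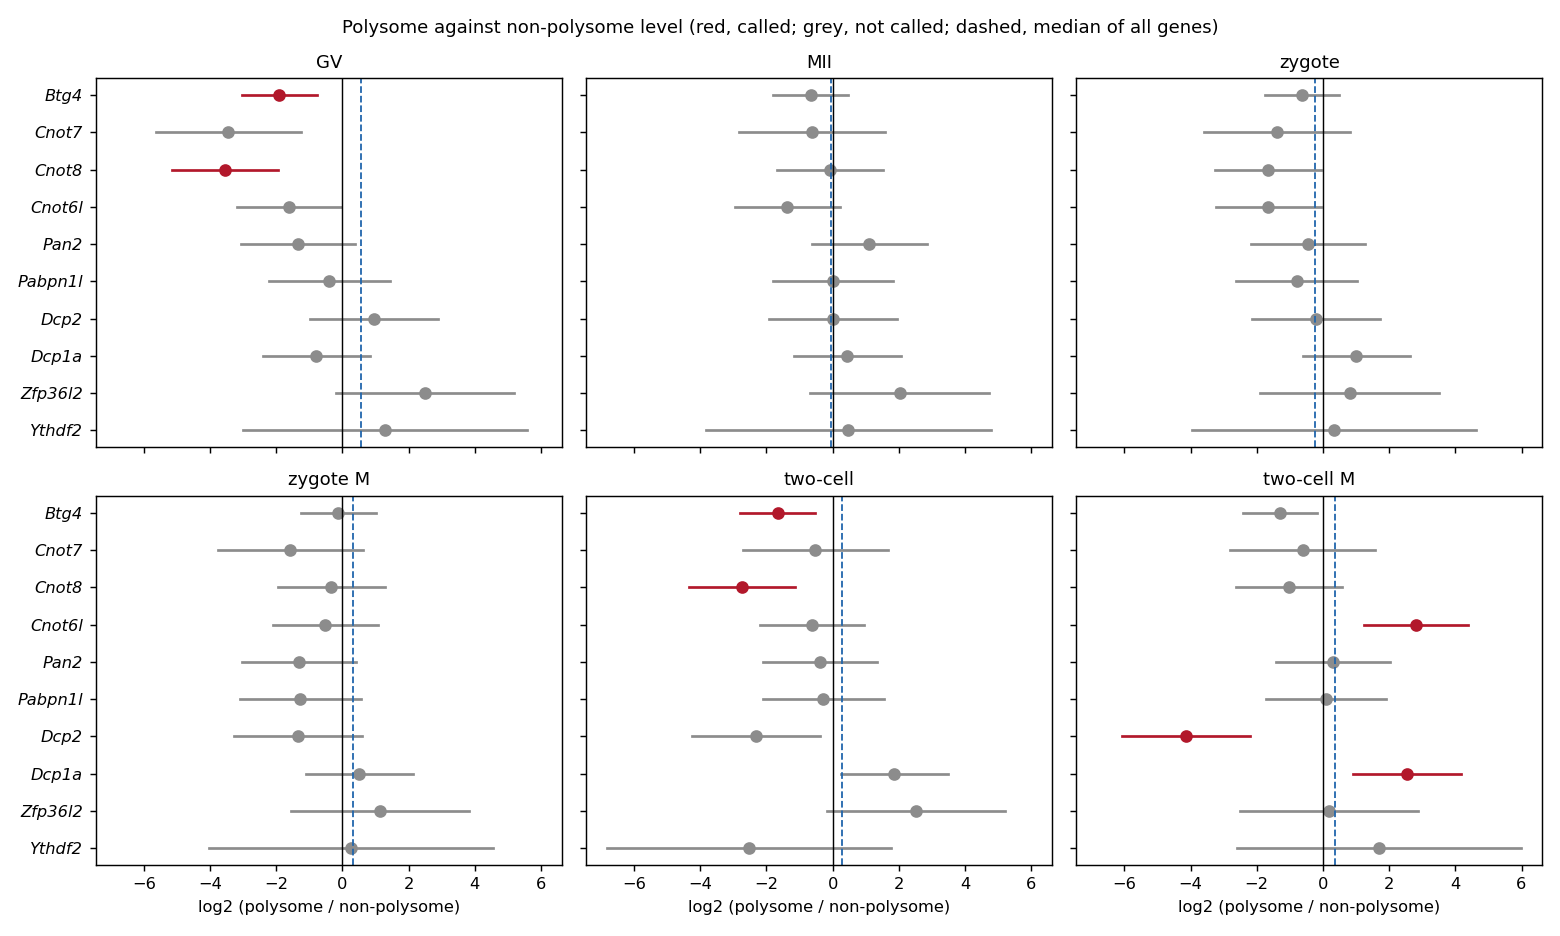
Log2 ratio of the polysome to the non-polysome level of each clearance gene in the 6 stages (panels), with 95% intervals of the limma fit over 3 libraries a pool, red where called, and a dashed line at the median of all genes. Btg4 and Cnot8 are red and left of 0 in GV and two-cell, no member is red in MII, zygote or zygote M, and Cnot6l, Dcp2 and Dcp1a are red in two-cell M.

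The wider pathway was read from 92 other genes in 8 lists, of which 90 were in the table and 56 passed the minimum level. In polysomes few of them were called before two-cell M. From GV to MII, 1 was lower, Lsm7, a subunit of the ring that binds deadenylated ends (17.9 ± 12.9 to 2.03 ± 0.811 FPKM, SD, n = 3, log2 difference −2.88, limma adjusted p = 0.0011), where 6.11% of all genes were called. From MII to zygote 1 was lower, Exosc5 of the RNA exosome (18.5 ± 6.06 to 1.06 ± 0.12 FPKM, log2 difference −4.08, limma adjusted p = 0.00623), where 4.57% were. From zygote to zygote M Lsm7 was higher (2.83, limma adjusted p = 0.00126) against 5.75%, and from zygote M to two-cell none was called in limma, against 6.19% of all genes. In two-cell M 5 of the 56 were higher and 11 lower, where 8.13% of all genes were higher and 28.1% lower, and their median log2 difference was −0.16 against −1.17 for all genes. The largest called there were Nanos2, an RNA-binding partner of CCR4-NOT (82.0 ± 30.5 to 3.83 ± 6.52 FPKM, log2 difference −7.74, limma adjusted p = 4.82e-06), and Angel1 (1.58 ± 0.634 to 0.0127 ± 0.00463 FPKM, limma adjusted p = 2.14e-05) among the lower. The two-cell M level of Angel1 lies near the 0.01 FPKM offset, which sets the size of its fitted change. Among the higher were Lsm4 (0.699 ± 1.19 to 3.51 ± 3.82 FPKM, log2 difference 5.32, limma adjusted p = 0.0163), uneven between replicates, and Exosc2 (0.458 ± 0.443 to 3.54 ± 1.69 FPKM, log2 difference 3.28, limma adjusted p = 0.0318). By list, that step had 2 of 6 other CCR4-NOT subunits lower, 1 of 5 other deadenylases higher and 2 lower, 1 of 4 other BTG and TOB genes lower, and 1 of 7 genes of poly(A)-binding proteins lower. Decapping and 5′ decay had 3 of 11 genes higher and 2 lower, and uridylation and 3′ decay 1 of 12 higher and 0 lower, with a median log2 difference of 1.19. RNA-binding recruiters had 2 of 5 lower and the m6A list 1 of 6 lower. No list was tested as a set.

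Among the members, the group means over the 12 combinations of stage and pool gave the highest Pearson r for Btg4 and Pan2 (0.94), Pan2 and Dcp1a (0.91) and Pan2 and Pabpn1l (0.90). That order rests on two-cell M, where Pan2 lies at the offset, since over the other 10 group means these values were 0.62, 0.22 and 0.51. The lowest value over 12 means was that of Zfp36l2 and Ythdf2 (−0.62) and over 10 means that of Pabpn1l and Zfp36l2 (−0.77). Of 1890 protein-coding genes reaching 10 FPKM in polysomes, those most like Btg4 were Plpp5 (0.985), Oosp1 (0.970), Prmt2 (0.965), Zfyve21 (0.965) and Obox7 (0.962), with values of 0.708 to 0.889 over the 10 means without two-cell M. For Cnot6l they were 1810037I17Rik (0.947), Socs1 (0.923) and Timm8b (0.923), at 0.774 to 0.876 without two-cell M, and for Zfp36l2 Klf11 (0.855), Fam53c (0.832) and Cops7a (0.828), at 0.858 to 0.942 without it. These correlations describe 12 points that share libraries and depth.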

How the data were processed

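The authors prepared SMART-seq v4 libraries from polysome and non-polysome pools, trimmed reads with Trim Galore 0.4.1, mapped them to GRCm38 with STAR 2.5.3a and deposited FPKM for each gene. The program that computed FPKM is not given in the sources used here. RefSeq is the gene set given in their methods, but the table's own gene annotation is that of Ensembl and Havana. Every deposited FPKM value is at least 0.01, an offset that is present in all libraries. The labels list 38 samples, of which 36 have a column (3 per group), and the other 2, a zygote replicate in both pools, were not analysed here. Replicates were not pooled, and 0 columns were unassigned.

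log2 FPKM was fitted with limma 3.58.1 (R 4.3.3, empirical Bayes with a trend, two-sided), with 12 group means, on the 7967 genes whose geometric mean reached 0.1 FPKM, adjusted after Benjamini-Hochberg. Calls needed an adjusted p under 0.05 and a log2 difference beyond 1. All 10 members passed the minimum. Members and lists were chosen with earlier results of these data known. Values were named for all members and, of the other pathway genes averaging 1 FPKM or more, for the 2 largest called in each direction and step. Genes most like a member were taken by Pearson r. Depth was estimated from the most frequent low value of genes with 1 transcript, taken as 1 fragment. Of values under 50 fragments, 30.7 to 42.6% were whole within 0.05 of a fragment, where an even spread gives 10%, so counts were not recovered. Intervals and floors that use these fragments cover counting error only. On data simulated with this table's spread for MII against GV (7967 genes), 38 of 100 planted log2 changes of 4 and 3 of 100 of 2 were called. Transcript sequences were from GENCODE, GRCm38. Alternatives covered pseudocounts (0.1 and 1), minimum levels, quantile and median scaling, blocks, other fits and leaving out each library.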

Additional observations from a re-analysis of the deposited data

Results flagged for a closer look

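The change on entering M phase was set against itself between stages in polysomes (MII less GV, zygote M less zygote, two-cell M less two-cell), a comparison added after seeing the data. Of 30 member tests in limma 11 were called, all lower, where 18.9% of all gene tests were called.

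The change into zygote M was below that into MII by 3.96 on the log2 scale for Cnot8 (log2 difference between the changes −3.96, SE 1.11, limma adjusted p = 0.0197, lost without MII replicate 2 or GV replicate 2), and by 4.16 for Pabpn1l (−4.16, SE 1.26, limma adjusted p = 0.0334, lost in all 12 fits without a library), against 9.51% of genes.

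Between two-cell M and MII the differences were −4.31 for Btg4, −4.71 for Cnot7, −8.70 for Pan2, −6.42 for Pabpn1l and −3.94 for Dcp1a, against 23.5% of genes and a median of all genes of −1.41. Without two-cell M replicate 1 the Cnot7 value was −3.28 and was not called in limma (adjusted p = 0.0985), and without MII replicate 2 it was −4.30 and was not called either.

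Between two-cell M and zygote M the differences were −4.23 for Btg4, −5.05 for Cnot7, −6.88 for Pan2 and −3.19 for Dcp1a, against 23.7% of genes and a median of all genes of −0.86. The Dcp1a call was lost in 9 of the 12 fits without a library, at limma adjusted p between 0.0502 and 0.102, and that of Cnot7 without two-cell M replicate 1. With library medians set equal 5 of the 11 calls were left, and Cnot8 was called higher in two-cell M less zygote M (3.56, limma adjusted p = 0.0226). Pan2 in two-cell M is under 3 fragments in all its libraries, so its sizes depend on the offset of the table.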

How the results depend on the processing

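Leaving out each library in turn gave 8 to 11 member calls over the polysome steps (9 in the full fit), 8 to 11 for like phases (9), 6 to 10 for the non-polysome steps (7), 5 to 9 between pools (7), 0 to 1 for the difference between pools (0), 8 to 11 for the difference between M-phase changes (11) and 7 to 8 members with a stage effect (8). With 1 FPKM added, the polysome steps gave 14 calls and the non-polysome steps 11. Quantile normalization gave 14, 12 and, for like phases, 14. Library medians set equal gave 4 for the non-polysome steps and 6 for the difference between M-phase changes (5 kept). Of the 7 non-polysome calls that scaling kept 1, Pan2, and it gained 3, all higher. These were Cnot8 at 4.45 and Dcp2 at 3.78 in two-cell M, and Cnot8 at 2.23 from zygote M to two-cell. The median of all genes in that two-cell M step was 2.51 under this scaling and −1.14 in the full fit. In the full fit Cnot8 stood there at 0.80 and Dcp2 at 0.13. Fitting only the libraries compared gave 16 for the polysome steps. It kept 7 of the 9 calls of the full fit and lost those of Cnot7 and Pabpn1l in two-cell M. The difference between pools gave 1 call under each of these 4 settings and under the fit with no trend. No share of all genes called is given here for these settings, so their counts are not set against a background. Without the two-cell M libraries the 4 earlier polysome steps gave 5 calls in place of 2. The cause was not tested.

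Replicate letters did not pair the samples (mean r of deviations 0.02 in either pool). With the letter as a replicate block the counts were 8, 10, 6, 6, 0, 9 and 8 in the order above. Under that block 5 single results lost their call and 1 gained it, Cnot8 in zygote M against MII in polysomes. With the gradient as a block (mean r 0.08, lowest −0.01) 4 calls were left between pools, without those of Btg4 in GV and two-cell and of Dcp1a in two-cell M. Directions reversed in 4 of the single results called in the full fit or named: Cnot7 (0.18) and Dcp2 (0.55) in two-cell M against MII under quantile normalization, Pan2 between pools in two-cell M with library medians set equal (−2.19), and Pabpn1l there without two-cell M polysome replicate 2 (−2.01, or 1.65 without replicate 3, where the full value was 0.10). Changes of 2 on the log2 scale were mostly missed on simulated data, and in two-cell M 1 to 3 libraries of several members lay under 3 fragments.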
